A study of Homo sapiens with 8 samples.

Results

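The 10 genes of the BCL2 family described here comprised the pro-survival members BCL2, BCL2L1 and MCL1, the effectors BAX and BAK1, and the BH3-only members BID, BAD, BCL2L11, BBC3 and PMAIP1. They were chosen by symbol, with earlier results of these data known, and they are 10 of the 60230 genes in the count table and 10 of the 13400 genes that passed the filter on low counts. RNA was sequenced from HepG2 cells, a human liver cancer line, that overexpressed the drug-metabolizing enzyme CYP2C19 and were kept in medium with 3 µg/mL blasticidin. Each of 4 groups had 2 libraries, which the labels name day 1 and day 2 and which are called replicates 1 and 2 below. The cells received compound 4, 5 or 6 or, as control, 0.2% DMSO for 24 h. All 3 compounds are bisphenol antioxidants used in plastic. Each was given at the concentration that had inhibited growth of this line by 50% in a separate assay with a longer exposure. Growth inhibition at 24 h is not given in the study. Its flow cytometry at 24 h with compounds 4 and 6 found more cells in G0/G1 and fewer in S phase. The study reports no significant change in the sub-G0 and G2/M shares. Compounds 4 and 6 share a methylene bridge between their phenol rings, and compound 6 carries cyclohexyl groups where compound 4 carries tert-butyl groups. Compound 5 has an ethylidene bridge and only tert-butyl groups as ring substituents. Since the concentrations were set separately for each compound, comparisons between compounds are at the same time but not at the same concentration. The study describes the 3 concentrations as rather comparable. All groups shared the overexpressing line, so no group reports on cells without CYP2C19.

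BCL2 family proteins control the mitochondrial route of apoptosis. Pro-survival members hold the effectors in check at the outer mitochondrial membrane, BH3-only members bind the pro-survival proteins or activate the effectors, and free effectors open the membrane and release cytochrome c. Hepatocytes are known to rely on BCL2L1 (BCL-XL) and MCL1 for survival.

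The total count per library was between 9791659 and 17814595, with a median of 11108659.5, and compound 5 replicate 2 had the largest total. Of the hepatocyte markers, ALB was between 14400 and 20700 CPM (counts scaled to the size of each library with TMM factors) in the 8 libraries. The summed level of the 7 hepatocyte markers was between 44200 and 47500 CPM in DMSO, between 30600 and 37100 with compound 4, between 37700 and 38800 with compound 5, and between 33300 and 38900 with compound 6. All treated libraries were thus below both controls in this sum, and its part in the results that follow was not tested. The leukocyte marker PTPRC had 0 counts in every library, COL1A1, COL3A1 and KRT7 had at most 1 count, PECAM1 at most 7 and VWF at most 13, whereas CD68 (20 to 39.3 CPM) and SOX9 (110 to 172 CPM) were measured throughout. The mean level of CYP2C19 was 22 CPM in DMSO and 37.8, 45.4 and 22.6 CPM with compounds 4, 5 and 6. The values are of bulk RNA, in which fewer cells with a transcript and less of it per cell cannot be told apart. The labels do not name separate cultures beyond the day, so the p-values measure the spread between these libraries, which may be technical.

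The promoters of 3 members are shown because the 2 genes with the highest levels per kilobase in DMSO (BCL2L1 and BAX) and the gene with the largest fitted fold changes with compounds 4 and 6 (PMAIP1) differ in their upstream sequence. RefSeq (GRCh38.p14) gave the 250 bases before the start for 9 of the 10 members, MCL1 not among them. Each sequence is written 5′ to 3′ on the strand of its gene, and capitals mark matches to the motifs searched. In BCL2L1 (chr20:31723964-31724213, minus strand) the capitals are TATAAA, in PMAIP1 (chr18:59899746-59899995, plus strand) they are the GC box GGGCGG or its reverse complement, and in BAX (chr19:48954625-48954874, plus strand) they are the E-box CACGTG, the GC box, the reverse complement of CCAAT, and 1 match to the core of the antioxidant response element, TGACNNNGC, which overlaps an E-box.
BCL2L1: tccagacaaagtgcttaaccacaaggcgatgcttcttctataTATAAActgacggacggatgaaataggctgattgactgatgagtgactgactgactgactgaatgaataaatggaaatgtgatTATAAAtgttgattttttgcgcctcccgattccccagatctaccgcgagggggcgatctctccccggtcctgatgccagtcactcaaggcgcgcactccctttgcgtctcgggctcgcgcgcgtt
BAX: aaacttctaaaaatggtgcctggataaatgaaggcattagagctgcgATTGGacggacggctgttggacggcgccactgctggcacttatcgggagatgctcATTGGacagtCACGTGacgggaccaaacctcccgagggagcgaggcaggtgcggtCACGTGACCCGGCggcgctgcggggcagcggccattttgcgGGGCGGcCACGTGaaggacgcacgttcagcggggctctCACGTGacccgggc
PMAIP1: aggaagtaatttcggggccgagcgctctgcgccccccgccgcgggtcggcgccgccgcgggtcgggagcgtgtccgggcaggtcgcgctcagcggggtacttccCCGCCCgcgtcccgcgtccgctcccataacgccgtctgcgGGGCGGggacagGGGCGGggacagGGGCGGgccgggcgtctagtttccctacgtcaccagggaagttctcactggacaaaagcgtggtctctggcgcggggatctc
The BCL2L1 window held 2 TATAAA matches and had a GC content of 50%, below the median of 58.0% over all 35116 promoters. The BAX window held 4 E-boxes and had a GC content of 62.8%, and the PMAIP1 window held 4 GC boxes and had 72.8%. On both strands, TATAAA was in 1 of the 9 members and in 10.7% of all promoters, CACGTG in 2 of 9 and 6.34%, GGGCGG in 6 of 9 and 42.6%, CCAAT in 5 of 9 and 32.0%, TGACNNNGC in 2 of 9 and 10.9%, and the AP-1 motif TGANTCA in 1 of 9 (BBC3) and 6.57%. None of the 9 windows held the cyclic AMP response element TGACGTCA (1.65% of all promoters), the CHOP-ATF4 composite TGATGNAA (3.14%) or the STAT motif TTCNNNGAA (6.57%). A match is a description of the letters and not a measured binding site.

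In the DMSO controls the members spanned a wide range of transcript levels. Per kilobase of the longest coding transcript (CPM per kilobase, RPKM), BCL2L1 had the highest level at 106 ± 6.87 (SD, n = 2 for all levels), followed by BAX at 88.4 ± 4.07 and MCL1 at 32.4 ± 0.599. BID had 15.7 ± 0.764, BAD 12.6 ± 0.517, BAK1 12.2 ± 1.0 and BBC3 10.4 ± 1.8. BCL2L11 was lower at 4.48 ± 0.339, and PMAIP1 (0.707 ± 0.0331) and BCL2 (0.573 ± 0.111) had the lowest levels. The libraries of BAK1 overlapped with those of BAD and with those of BBC3, so that these neighbours were not ordered beyond their spread, whereas BCL2L1, BAX, MCL1 and BID did not overlap with the next member. BCL2L1, BAX and MCL1 remained the 3 members with the highest levels per kilobase in all 4 groups. The plot of levels per kilobase shows this order. With all annotated exon bases of a gene as its length, the order changed in part. In DMSO, BAK1 (12.2) was then above BID (8.83). The libraries of BID (8.53 to 9.14) overlapped with those of BAD (8.28 to 8.78). MCL1 was below BAX in DMSO (29.1 and 46.4). It was above BAX with compounds 4 (53.6 and 36.4), 5 (60.8 and 38.3) and 6 (61.4 and 38.1). BCL2L1, BAX and MCL1 kept the 3 highest levels in all 4 groups.

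**Figure D1:**
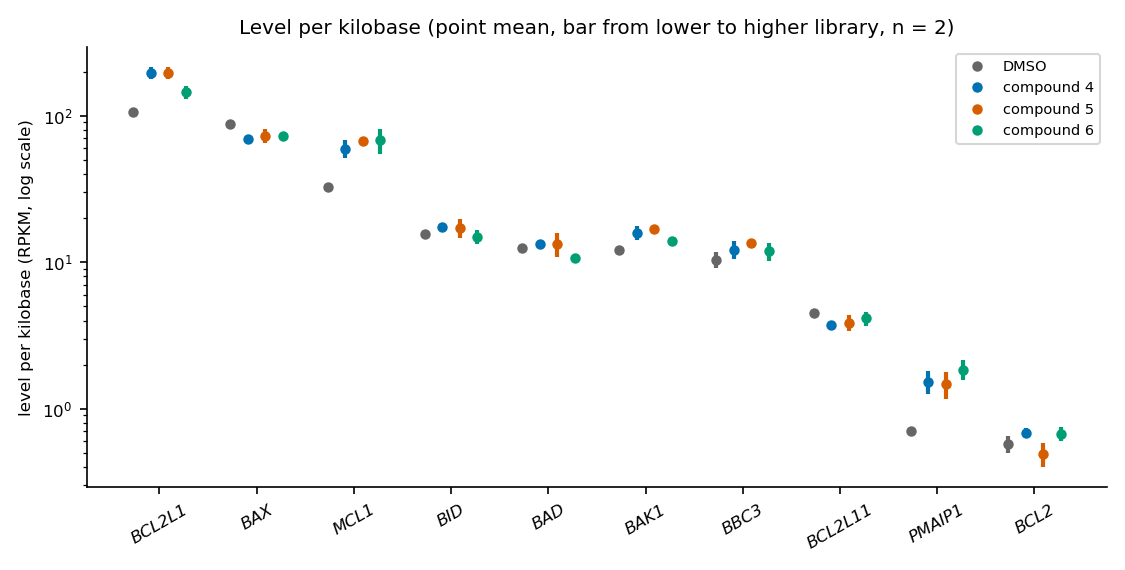
Level of each member per kilobase of its longest coding transcript (RPKM, log axis) in the 4 groups, with points for the mean, bars from the lower to the higher library (n = 2) and members ordered by their DMSO mean. BCL2L1, BAX and MCL1 lie above the other 7 members in every group, and PMAIP1 and BCL2 lie lowest in DMSO.

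Against DMSO, the pro-survival genes BCL2L1 and MCL1 rose with compounds 4 and 5, and MCL1 rose with compound 6. No effector or BH3-only gene passed the threshold, an adjusted p of 0.05 over all 13400 genes in edgeR's quasi-likelihood test. The number of members called was 2 of 10 with compound 4, where 9.51% of all tested genes were called, 2 of 10 with compound 5 (8.3% of all genes) and 1 of 10 with compound 6 (0.575% of all genes). All 5 calls were increases, a direction in which 5.6%, 5.35% and 0.493% of all genes were called, and 0 members fell, with 3.91%, 2.95% and 0.0821% of all genes called lower. At an unadjusted p of 0.05 the counts were 5, 4 and 3 members, against 27.5%, 28.4% and 18.6% of all genes. The median log2-fold change of the members was 0.25, 0.26 and 0.20, while that of all genes was 0.01, 0 and 0.02. The libraries of treated and control cells did not overlap for 7, 6 and 6 members, which is near the 58.4%, 59.5% and 55.4% of all genes that did not overlap. With compound 4, 5 members lay above both controls and 2 below (30.4% and 28% of all genes), with compound 5 the numbers were 5 and 1 (31% and 28.5%), and with compound 6 they were 4 and 2 (29.3% and 26%). The comparisons share the same controls. Where all treated libraries of a gene are said below to lie on the same side of both controls, the share of all genes that did so was not computed.

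BCL2L1 (ENSG00000171552, chromosome 20, 31664452 to 31723989, minus strand, GRCh38) encodes BCL-XL, and a shorter splice form that promotes apoptosis. Its level was 288 and 263 CPM in the DMSO libraries (replicates 1 and 2), 461 and 558 with compound 4, 562 and 467 with compound 5, and 338 and 419 with compound 6. All 6 treated libraries were above both controls. With compound 4 the gene rose 1.85-fold, a log2-fold change of 0.89 ± 0.15 (SE, 95% interval 0.56 to 1.21, adjusted p = 0.0093). With compound 5 it rose 1.87-fold, a log2-fold change of 0.90 ± 0.15 (0.57 to 1.23, adjusted p = 0.011). With compound 6 the fitted log2-fold change was 0.46 ± 0.15 (0.13 to 0.79), and the adjusted p of 0.15 did not pass the threshold, although the unadjusted p was 0.011. It passed in 1 of the 14 alternative settings, the edgeR fit without the filter on low counts (adjusted p = 0.0079). That fit called 5.87% of all genes with compound 6. The annotation lists 9 coding transcripts for the gene, and counts per gene do not separate the long from the short form. The call for compound 4 was lost without DMSO replicate 2 (log2-fold change 0.82, adjusted p = 0.11) or compound 4 replicate 2 (0.74, 0.072). That for compound 5 was lost without DMSO replicate 1 (0.96, 0.068), DMSO replicate 2 (0.84, 0.11) or compound 5 replicate 1 (0.75, 0.073).

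MCL1 (ENSG00000143384, chromosome 1, 150574551 to 150579738, minus strand) encodes a short-lived pro-survival protein that binds BAK1 and several BH3-only proteins. Its level was 129 and 126 CPM in DMSO, 202 and 267 with compound 4, 283 and 248 with compound 5, and 215 and 322 with compound 6. The lowest treated library was above both controls, and the libraries of the 3 compounds overlapped with each other. The gene rose 1.84-fold with compound 4 (log2-fold change 0.88 ± 0.19, 95% interval 0.45 to 1.31, adjusted p = 0.023), 2.08-fold with compound 5 (1.06 ± 0.19, 0.63 to 1.49, adjusted p = 0.015) and 2.11-fold with compound 6 (1.08 ± 0.19, 0.65 to 1.51, adjusted p = 0.048). The call for compound 6 was lost with the day as a replicate block (1.06, adjusted p = 0.051) and with DESeq2's size factors (1.06, 0.052). It was also lost without DMSO replicate 1 (1.08, 0.17), DMSO replicate 2 (1.06, 0.44) or compound 6 replicate 2 (0.76, 0.33). The call for compound 4 was lost without DMSO replicate 1 (0.89, 0.091), DMSO replicate 2 (0.86, 0.17) or compound 4 replicate 2 (0.67, 0.15), and that for compound 5 without DMSO replicate 1 (1.07, 0.09), DMSO replicate 2 (1.04, 0.12) or compound 5 replicate 1 (0.95, 0.091). MCL1 also has a short splice form that promotes apoptosis, which the counts do not separate.

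BCL2 (ENSG00000171791, chromosome 18, 63123346 to 63320128, minus strand), the founding pro-survival member, had low levels. They were 3.69 and 4.86 CPM in DMSO, 4.69 and 5.55 with compound 4, 2.96 and 4.38 with compound 5, and 4.51 and 5.59 with compound 6. The treated and control libraries overlapped for every compound. The log2-fold changes were 0.26 (95% interval −0.37 to 0.88), −0.21 (−0.84 to 0.42) and 0.23 (−0.40 to 0.87), with adjusted p of 0.6, 0.65 and 0.7. These intervals include a rise of 1 log2 unit for none of the compounds.

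**Figure D2:**
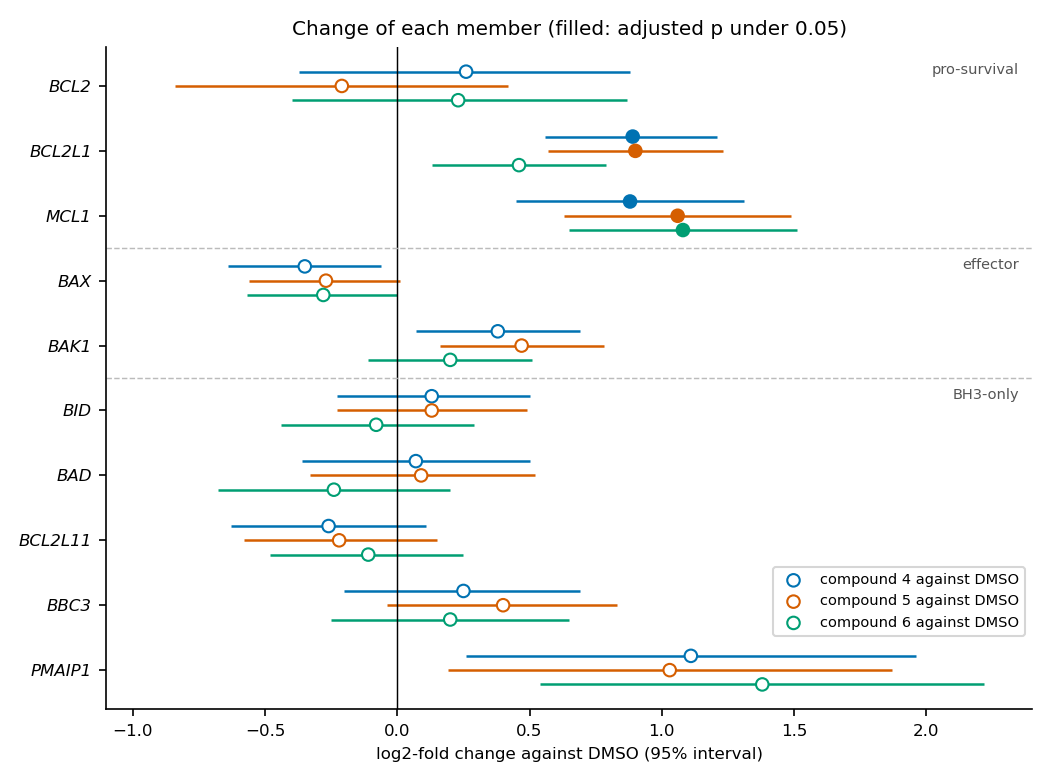
Log2-fold change of each member against DMSO for compounds 4, 5 and 6, with bars for the 95% interval of the edgeR fit and filled points for an adjusted p under 0.05. The filled points are BCL2L1 with compounds 4 and 5 and MCL1 with all 3 compounds, and the PMAIP1 intervals are the widest.

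Of the effectors, BAX (ENSG00000087088, chromosome 19, 48954815 to 48961798, plus strand), which moves from the cytosol to mitochondria when activated, was at 116 and 124 CPM in DMSO. It was at 99.5 and 89 with compound 4, 88.2 and 110 with compound 5, and 102 and 95.2 with compound 6. All 6 treated libraries were below both controls. The log2-fold changes were −0.35 ± 0.13 (95% interval −0.64 to −0.06, adjusted p = 0.11), −0.27 ± 0.13 (−0.56 to 0.01, adjusted p = 0.19) and −0.28 ± 0.13 (−0.57 to 0, adjusted p = 0.27), none past the threshold. BAX was not called under any of the 14 alternative settings for any compound.

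BAK1 (ENSG00000030110, chromosome 6, 33572547 to 33580293, minus strand), the effector that resides in the outer mitochondrial membrane, was at 25.4 and 28.6 CPM in DMSO, 31.4 and 38.9 with compound 4, 37 and 37.7 with compound 5, and 30 and 32 with compound 6. Its treated libraries were all above both controls, opposite to BAX. The log2-fold changes were 0.38 ± 0.14 (95% interval 0.07 to 0.69, adjusted p = 0.11), 0.47 ± 0.14 (0.16 to 0.78, adjusted p = 0.064) and 0.20 ± 0.14 (−0.11 to 0.51, adjusted p = 0.48). The value for compound 5 passed the threshold with the day as a replicate block (0.47, adjusted p = 0.043), without the filter on low counts (0.47, 0.037) and without compound 4 replicate 2 (0.47, 0.049). The pseudogenes BAK1P1 and BAK1P2 had 1 and 0 counts summed over all libraries.

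Of the BH3-only members, PMAIP1 (NOXA; ENSG00000141682, chromosome 18, 59899948 to 59904306, plus strand), which binds MCL1 and promotes its degradation, had few counts, and the largest fitted changes of the 10 members with compounds 4 and 6. The DMSO libraries held 13 and 17 counts, those of compound 4 held 26 and 46, those of compound 5 held 42 and 40, and those of compound 6 held 31 and 44. Scaled to depth, these were 1.33 and 1.42 CPM in DMSO, 2.44 and 3.5 with compound 4, 3.46 and 2.28 with compound 5, and 3.04 and 4.17 with compound 6. All 6 treated libraries were above both controls. The fitted log2-fold changes were 1.11 ± 0.38 (95% interval 0.26 to 1.96), 1.03 ± 0.38 (0.19 to 1.87) and 1.38 ± 0.38 (0.54 to 2.22), with adjusted p of 0.096, 0.11 and 0.11. None passed the threshold at this depth. Without the filter on low counts, compounds 4 (1.1, adjusted p = 0.037) and 6 (1.37, 0.0075) passed it.

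BBC3 (PUMA; ENSG00000105327, chromosome 19, 47220822 to 47232766, minus strand), which binds all pro-survival members, was at 21.4 and 16.7 CPM in DMSO, 19.3 and 25.6 with compound 4, 26.5 and 23.6 with compound 5, and 18.7 and 24.9 with compound 6. Only with compound 5 were both treated libraries above both controls. The log2-fold changes were 0.25 (95% interval −0.20 to 0.69), 0.40 (−0.04 to 0.83) and 0.20 (−0.25 to 0.65), with adjusted p of 0.46, 0.21 and 0.63. BCL2L11 (BIM; ENSG00000153094, chromosome 2, 111119378 to 111168447, plus strand), which can activate the effectors directly, was at 24.7 and 22.2 CPM in DMSO, 19.4 and 19.7 with compound 4, 22.8 and 17.7 with compound 5, and 23.9 and 19.3 with compound 6. Its log2-fold changes of −0.26 (−0.63 to 0.11), −0.22 (−0.58 to 0.15) and −0.11 (−0.48 to 0.25) had adjusted p of 0.34, 0.4 and 0.75, and both treated libraries were below both controls with compound 4 alone. The gene overlaps the long noncoding RNA gene MIR4435-2HG on the opposite strand. The library kit was directional, but the sources used here do not state whether counting used strand. The 17 annotated coding transcripts of BCL2L11, which include forms that differ in potency, are not separated.

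BID (ENSG00000015475, chromosome 22, 17734138 to 17774770, minus strand), which caspase-8 cleaves to link death receptors to mitochondria, was at 37.9 and 40.6 CPM in DMSO, 43.5 and 42.7 with compound 4, 36.6 and 49.3 with compound 5, and 33.4 and 41.1 with compound 6. Its log2-fold changes were 0.13 (95% interval −0.23 to 0.50), 0.13 (−0.23 to 0.49) and −0.08 (−0.44 to 0.29), and its libraries overlapped with the controls for compounds 5 and 6. BAD (ENSG00000002330, chromosome 11, 64269830 to 64284704, minus strand), which 14-3-3 proteins sequester when it is phosphorylated, was at 14.1 and 15 CPM in DMSO, 16.4 and 14.3 with compound 4, 12.6 and 18.3 with compound 5, and 11.8 and 13 with compound 6. Its log2-fold changes were 0.07 (−0.36 to 0.50), 0.09 (−0.33 to 0.52) and −0.24 (−0.68 to 0.20), and its libraries overlapped with the controls for compounds 4 and 5. The adjusted p-values of both genes were between 0.56 and 0.84. BAD overlaps GPR137 on the opposite strand, so its counts carry the same uncertainty as those of BCL2L11.

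The balance between classes was followed by ratios per kilobase of the longest coding transcript within each library, as a description without a test. Ratios and shares were computed with this length alone, and their values depend on it. The ratio of BCL2L1 to BAX was 1.29 and 1.1 in DMSO, 2.41 and 3.26 with compound 4, 3.32 and 2.21 with compound 5, and 1.72 and 2.29 with compound 6. The ratio of MCL1 to BAX was 0.384 and 0.35 in DMSO and between 0.702 and 1.17 in the treated libraries. All treated libraries exceeded both controls in both ratios. This follows from the higher BCL2L1 and MCL1 levels and the lower BAX levels given above and is not a separate result. The ratio of MCL1 to PMAIP1 was 48.0 and 43.7 in DMSO and between 35.1 and 53.9 in the treated libraries, which overlapped with the controls. The ratio of BCL2L1 to MCL1 was 3.37 and 3.15 in DMSO, 3.44 and 3.15 with compound 4, 2.99 and 2.84 with compound 5, and 2.37 and 1.96 with compound 6, so the libraries of compounds 5 and 6 were below both controls and those of compound 4 were not. Of the summed level of the 10 members, the pro-survival class took 50.4% and 47.5% in DMSO and between 59% and 69.3% in the treated libraries. The effectors took 34.0% and 37.1% in DMSO and between 19.6% and 28.3% after treatment, and the BH3-only class took 15.6% and 15.4% in DMSO and between 11.1% and 13.5% after treatment. These shares are parts of 1 sum and are not independent of each other, nor of the levels of BCL2L1, MCL1 and BAX given above.

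**Figure D3:**
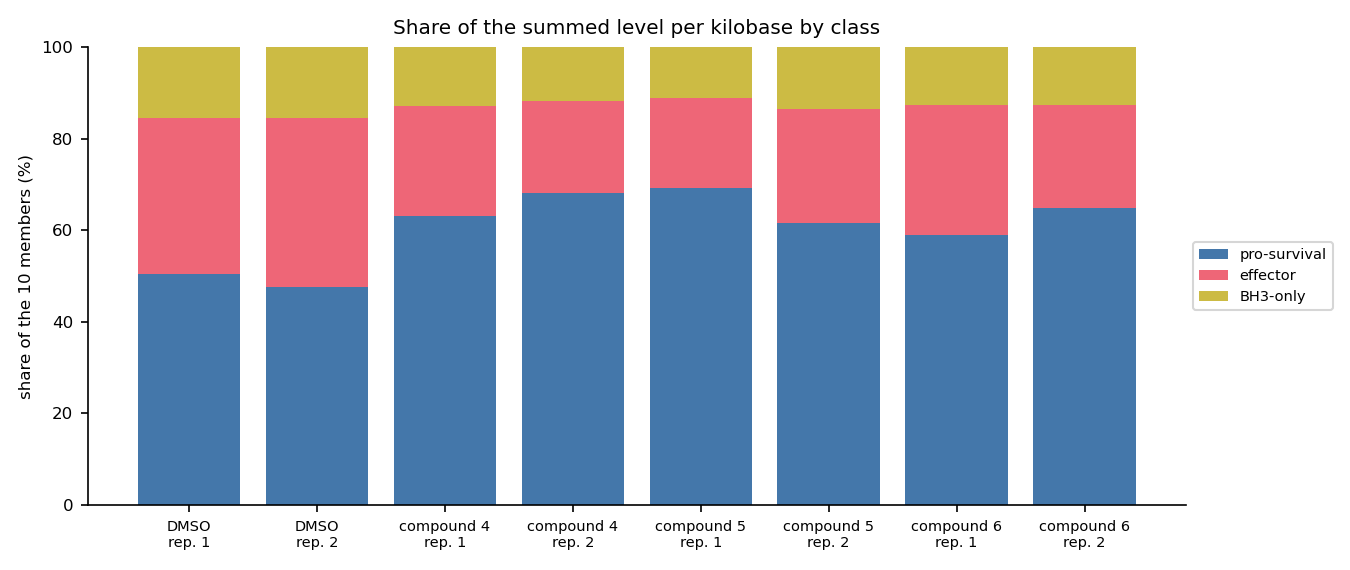
Share of the summed level per kilobase of the 10 members (percent, y axis) taken by the pro-survival, effector and BH3-only members in each of the 8 libraries. The pro-survival share is 50.4% and 47.5% in the DMSO libraries and between 59% and 69.3% in the treated libraries.

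Direct comparisons between the compounds address whether the members responded differently to related structures. Of 30 member comparisons over 3 pairs of compounds, 0 passed the threshold in edgeR's quasi-likelihood test or in the Wald test of DESeq2, and 2 had an unadjusted p under 0.05. Over all genes, 0.313% were called between compounds 4 and 5, 0% between 4 and 6, and 1.03% between 6 and 5, and 16.2%, 7.05% and 18.5% had an unadjusted p under 0.05. Both small unadjusted p-values were of BCL2L1, whose fitted level was lower with the cyclohexyl compound 6. The log2 difference was 0.43 ± 0.15 between compounds 4 and 6 (95% interval 0.10 to 0.75, unadjusted p = 0.015, adjusted p = 0.55 in the edgeR fit) and −0.44 ± 0.15 between compounds 6 and 5 (−0.77 to −0.12, unadjusted p = 0.013, adjusted p = 0.16 in the edgeR fit). Both libraries of compound 6 were below all 4 libraries of compounds 4 and 5. The libraries did not overlap for 44.5% of all genes between compounds 4 and 5, 38.6% between 4 and 6, and 49.4% between 6 and 5. Without the filter on low counts both differences passed the threshold (0.43, adjusted p = 0.039, and −0.46, adjusted p = 0.008, in the edgeR fit). Of all genes, 1.12% between compounds 4 and 6 and 4.29% between 6 and 5 were then called. Between compounds 4 and 5 the BCL2L1 difference was −0.01 (−0.34 to 0.31).

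For MCL1, the log2 difference was −0.18 (95% interval −0.60 to 0.24) between compounds 4 and 5, −0.20 (−0.62 to 0.23) between 4 and 6, and 0.02 (−0.40 to 0.44) between 6 and 5. For PMAIP1, the differences were 0.08 (−0.68 to 0.84), −0.27 (−1.04 to 0.49) and 0.35 (−0.41 to 1.11). Over all 10 members, the differences ranged from −0.18 to 0.47 between compounds 4 and 5, from −0.27 to 0.43 between 4 and 6, and from −0.44 to 0.44 between 6 and 5. The intervals leave room for differences of the size of the BCL2L1 value, so a similar response to the compounds is not shown.

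Among 12728 genes with a mean of at least 1 CPM, those with the pattern most like BCL2L1 over the 8 libraries were ZNF114 (Pearson r of log2 CPM 0.996), SHB (0.994) and CLIP2 (0.991). Those most like MCL1 were FBLIM1 (0.991), CARS1 (0.986) and IL4R (0.986). The libraries share their groups and depth, and the correlations are given as a description.

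Other genes of the apoptosis pathway were counted over 8 lists with 68 genes, of which 63 were tested. BCL2A1, BCL2L10, BCL2L14, BCL2L15 and HRK did not pass the filter on low counts. With compound 4, 3 of the 63 rose and 3 fell (9.52%, with 9.51% over all genes). With compound 5, 6 rose and 1 fell (11.1%, with 8.3% over all genes). With compound 6, 0 passed the threshold in edgeR's test, 15 had an unadjusted p under 0.05 (18.6% of all genes did), and DESeq2 called 3 (4.08% of all genes). The shares are near those of all genes, and the medians of 0.05, 0.02 and −0.01 are near 0.

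Of the 8 tested genes in the list of other BCL2 family members, BCL2L2, which encodes the pro-survival protein BCL-W, rose with compounds 4 and 5. It was at 54.5 and 48.2 CPM in DMSO, 78.7 and 104 with compound 4, 83.7 and 72.7 with compound 5, and 81.9 and 93.6 with compound 6. All 6 treated libraries were above both controls. The log2-fold changes were 0.84 ± 0.16 (adjusted p = 0.014), 0.61 ± 0.15 (adjusted p = 0.043) and, not past the threshold, 0.77 ± 0.16 (adjusted p = 0.056). The read-through gene BCL2L2-PABPN1 shares exons with it on the same strand, so the split of reads between them is uncertain. The call for compound 4 was lost without DMSO replicate 2 (0.75, adjusted p = 0.15) or compound 4 replicate 2 (0.62, 0.094). That for compound 5 was lost without either DMSO library (0.69, 0.12 and 0.52, 0.24), compound 5 replicate 1 (0.49, 0.22) or either library of compound 6 (0.60, 0.061 and 0.61, 0.059). The BH3-only gene BMF had log2-fold changes of 0.64 (adjusted p = 0.066), −0.01 and 0.34, none past the threshold.

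Of the 13 apoptosome and caspase genes, CASP2, an initiator caspase, fell by 0.55 on the log2 scale with compound 4 (SE 0.13, adjusted p = 0.029), and none passed the threshold with compounds 5 or 6. Its levels were 27.1 and 28.2 CPM in DMSO and 18.3 and 19.4 with compound 4. The initiator CASP9 had log2-fold changes of −0.03, −0.29 and −0.24, none past the threshold. The CASP2 call was lost without DMSO replicate 1 (−0.59, adjusted p = 0.095), DMSO replicate 2 (−0.52, 0.21), compound 4 replicate 1 (−0.53, 0.09) or compound 4 replicate 2 (−0.60, 0.12).

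Of the 6 inhibitors of apoptosis, 1 fell with compound 4 and another with compound 5. BIRC5 (survivin), which also acts in chromosome segregation and is most abundant in dividing cells, fell by 0.86 on the log2 scale with compound 4 (SE 0.18, adjusted p = 0.02). It was at 135 and 160 CPM in DMSO, 82.8 and 79.2 with compound 4, 93.4 and 144 with compound 5, and 85.3 and 83.2 with compound 6. With compound 6 the log2-fold change was −0.81 ± 0.18 (adjusted p = 0.071). BIRC3 fell by 0.87 with compound 5 (SE 0.21, adjusted p = 0.038), from 9.33 and 7.54 CPM in DMSO to 4.61 and 4.61. The BIRC5 call was lost without DMSO replicate 1 (−0.98, adjusted p = 0.052), DMSO replicate 2 (−0.74, 0.17), compound 4 replicate 1 (−0.91, 0.059) or compound 4 replicate 2 (−0.83, 0.13). The BIRC3 call was lost without DMSO replicate 1 (−0.72, 0.18), DMSO replicate 2 (−1.01, 0.13), compound 5 replicate 1 (−0.88, 0.17) or compound 5 replicate 2 (−0.86, 0.07), in the DESeq2 test (−0.88, 0.062) and in the fit of only the 4 samples compared (−0.87, 0.064). XIAP, which inhibits caspases directly, had log2-fold changes of 0.51 (adjusted p = 0.066), 0.28 and 0.55 (adjusted p = 0.11).

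**Figure D4:**
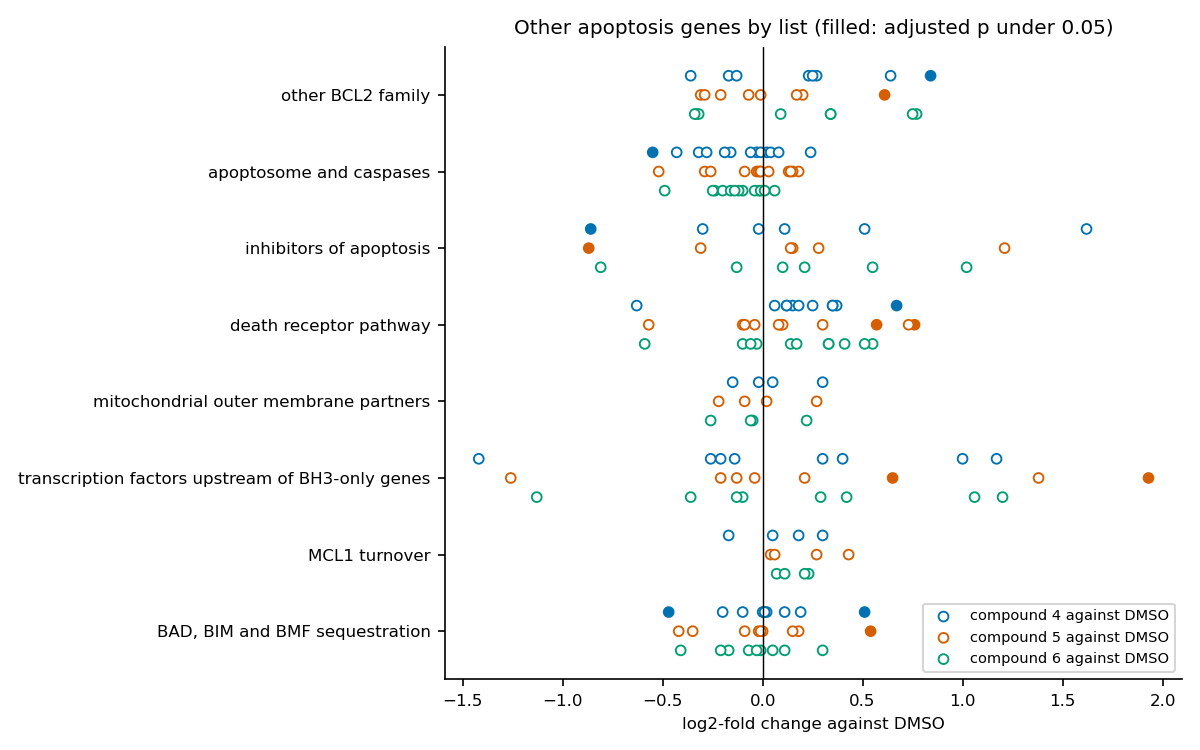
Log2-fold change against DMSO of the tested genes of the 8 pathway lists, 1 point per gene and compound, with filled points for an adjusted p under 0.05. Filled points appear for compounds 4 and 5 and for no gene with compound 6, and DDIT3 with compound 5 is the highest of them at 1.93.

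Of the 11 death receptor genes, TNFRSF1A, the main receptor of TNF, rose with compounds 4 and 5. It was at 123 and 124 CPM in DMSO, 189 and 205 with compound 4, 185 and 183 with compound 5, and 164 and 197 with compound 6. The log2-fold changes were 0.67 ± 0.11 (adjusted p = 0.0097), 0.57 ± 0.11 (adjusted p = 0.019) and, not past the threshold, 0.55 ± 0.11 (adjusted p = 0.058). All treated libraries were above both controls. TNFRSF10A encodes a receptor of TRAIL and overlaps AC100861.1 on the opposite strand, with the same uncertainty as for BCL2L11. TNFRSF10A rose with compound 5 by 0.76 ± 0.15 (adjusted p = 0.018). It was at 27.9 and 29 CPM in DMSO, 28.3 and 34.4 with compound 4, 51.1 and 45.1 with compound 5, and 28.5 and 34.2 with compound 6, and the direct differences from compound 5 did not pass the threshold (−0.61 for compound 4, adjusted p = 0.11, and −0.62 for compound 6, adjusted p = 0.075). The TNFRSF1A call for compound 4 was lost without DMSO replicate 1 (0.66, adjusted p = 0.06), DMSO replicate 2 (0.68, 0.11) or compound 4 replicate 2 (0.62, 0.069), and that for compound 5 without DMSO replicate 1 (0.56, 0.12), DMSO replicate 2 (0.58, 0.14) or compound 5 replicate 1 (0.56, 0.098). The TNFRSF10A call was lost without DMSO replicate 1 (0.72, 0.11), DMSO replicate 2 (0.79, 0.13) or compound 5 replicate 1 (0.66, 0.11).

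Of the 8 transcription factors known to act upstream of BH3-only genes, ATF4 and DDIT3, both of the integrated stress response, rose with compound 5. ATF4 was at 424 and 406 CPM in DMSO, 519 and 575 with compound 4, 679 and 623 with compound 5, and 479 and 630 with compound 6. Its log2-fold change with compound 5 was 0.65 ± 0.13 (adjusted p = 0.022), and with compounds 4 and 6 it was 0.40 and 0.42 (adjusted p = 0.09 and 0.15). DDIT3 (CHOP) was at 13.9 and 11.1 CPM in DMSO, 20.3 and 35.5 with compound 4, 70.1 and 25.7 with compound 5, and 19.4 and 38.1 with compound 6. Compound 5 replicate 1 had the highest level of the 8 libraries. DDIT3 overlaps MARS and MBD6 on the opposite strand, so its counts carry the same uncertainty as those of BCL2L11. The log2-fold change with compound 5 was 1.93 ± 0.48 (adjusted p = 0.041), with the day as a replicate block it was 1.92 (adjusted p = 0.054), and without compound 5 replicate 1 it was 1.03 (adjusted p = 0.24). The DDIT3 call was also lost without DMSO replicate 1 (2.08, 0.14) or DMSO replicate 2 (1.77, 0.22), and the ATF4 call without DMSO replicate 1 (0.67, 0.11), DMSO replicate 2 (0.62, 0.16) or compound 5 replicate 1 (0.58, 0.14).

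Of the 9 genes whose proteins sequester BAD, BCL2L11 or BMF, the 14-3-3 gene SFN rose with compounds 4 and 5 and the 14-3-3 gene YWHAQ fell with compound 4. SFN was at 76.2 and 74.7 CPM in DMSO, 106 and 109 with compound 4, 119 and 101 with compound 5, and 85.5 and 100 with compound 6, with log2-fold changes of 0.51 ± 0.12 (adjusted p = 0.031), 0.54 ± 0.12 (adjusted p = 0.029) and 0.30 ± 0.12 (adjusted p = 0.24). YWHAQ was at 331 and 369 CPM in DMSO and 279 and 226 with compound 4, a log2-fold change of −0.47 ± 0.13 (adjusted p = 0.048). The SFN call for compound 4 was lost without either DMSO library (0.52, adjusted p = 0.12, and 0.50, 0.22) or either library of compound 4 (0.52, 0.075, and 0.49, 0.14). For compound 5 it was lost without either DMSO library (0.55, 0.14, and 0.53, 0.18) or compound 5 replicate 1 (0.41, 0.18). The YWHAQ call was lost without either DMSO library (−0.55, 0.1, and −0.39, 0.3), compound 4 replicate 2 (−0.32, 0.25) or either library of compound 6 (−0.47, 0.075, and −0.47, 0.07), and in the fit of only the 4 samples compared (−0.47, 0.055). Of the 4 outer membrane partners (VDAC1, VDAC2, VDAC3 and MTCH2) and the 4 genes of MCL1 turnover (HUWE1, FBXW7, USP9X and MARCHF5), 0 passed the threshold in edgeR's test with any compound. At an unadjusted p under 0.05 there were 1, 1 and 0 outer membrane partners and 0, 1 and 0 turnover genes with compounds 4, 5 and 6, with 27.5%, 28.4% and 18.6% of all genes.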

How the data were processed

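RNA of 8 libraries in 4 groups was analysed from the whole-number counts per gene that the authors deposited. Per the submitters' processing notes and the study's methods, reads were checked with FastQC 0.12.0, transcripts were quantified with Salmon 1.5.0, and estimates were summarized to genes without normalization. The study prepared its libraries with a directional kit. Whether counting used strand is not given in the sources used here. Groups were taken from the sample labels. In R 4.3.3 with edgeR 4.0.16, TMM factors were computed, genes were filtered with filterByExpr (minimum count 10), and the quasi-likelihood test was applied to 13400 genes in a joint fit of the 8 libraries, with no block since the study names none. Benjamini-Hochberg adjustment was used, with a threshold of 0.05. The standard error is the log2-fold change divided by the square root of F, and intervals are 95% t intervals. Levels are TMM-scaled CPM, or per kilobase with lengths and positions from GENCODE 29 (GRCh38). Neighbours in pattern were found on log2 CPM with 0.5 CPM added. Depth limits the precision of low genes such as PMAIP1 and BCL2, and the common biological coefficient of variation was 0.122.

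The members and lists were chosen with earlier results of these data known. Named were all 10 members, the pathway genes past the threshold for at least 1 compound, and the 3 genes most correlated with each called member. Some pathway genes that did not pass it (BMF, CASP9 and XIAP) and the motifs were chosen after values were seen. The day in the labels is the source of the pairing, and the difference between replicates 2 and 1 correlated across the 13400 genes with r between −0.16 and 0.30 over the 6 pairs of groups. Replicates differed by more than counting noise, with a mean chi-square per gene between 8.2 and 19.07. Other settings tried were a replicate block, DESeq2 1.42.0 with its Wald test, a fit of only the libraries compared, DESeq2's size factors, other filters, and leaving out each library. Scripts were tested on simulated data. Tables were made in Python 3.11.15 with pandas 2.3.3. A search of protein sequences for the BH3 motif was planned and was not analysed here.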

Additional observations from a re-analysis of the deposited data

How the results depend on the processing

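The counts of calls, the member changes against DMSO and the changes of the called pathway genes were recomputed under 14 alternatives. So were the differences of BCL2L1, MCL1 and PMAIP1 between compounds. Levels, ratios, shares and correlations were not recomputed under these 14 alternatives. Levels per kilobase were computed a second time with all annotated exon bases as the length, as given above. Of the 14 alternatives, 8 left out 1 library each (the lone library of its group is then assumed to vary like the others). For compound 6, the count of members called was 0 rather than 1 with the replicate block and with DESeq2 size factors (68 and 47 genes called in all). It was 3 without the filter on low counts. Without that filter 1 member was called between compounds 4 and 6 and 1 between 6 and 5. Calls over all genes in these 2 comparisons went from 0 and 138 to 259 (1.12%) and 990 (4.29%). Without the filter, 14, 11 and 10 pathway genes were called with compounds 4, 5 and 6, rather than 6, 7 and 0. Calls over all genes then went from 1275, 1112 and 77 to 2383, 2431 and 1355. For compound 6 the pathway count was 3 with DESeq2, 6 in the fit of only the 4 samples compared, and 2 with at least 10 counts in every sample, with 547, 1023 and 198 genes called in all. When single libraries were left out, the numbers of members and of pathway genes called against DMSO moved with each compound. The number of genes called over the whole table moved both ways as well. Each such fit leaves 1 library in a group, so a lost call in it is not by itself a property of that gene. The replicate block ended the calls of MCL1 with compound 6 and DDIT3 with compound 5, added BAK1 with compound 5, and changed no other member call against DMSO. Some signs turned. The BCL2L1 difference between compounds 4 and 5 was 0 with at least 10 counts in every sample, and the MCL1 difference between 6 and 5 was −0.01 with the block and 0 without the filter. Leaving out libraries turned BAD with compound 4 (−0.04 to 0.17) and 5 (−0.21 to 0.31), BBC3 with compound 6 (−0.02 to 0.38), BCL2 with compound 5 (−0.53 to 0.02), BCL2L11 with compound 6 (−0.29 to 0.04), and BID with compound 5 (−0.10 to 0.32) and 6 (−0.23 to 0.05). It also turned the differences between compounds 4 and 5 of BCL2L1 (−0.16 to 0.13), MCL1 (−0.40 to 0) and PMAIP1 (−0.22 to 0.40), and those of MCL1 between 4 and 6 (−0.45 to 0.12) and between 6 and 5 (−0.31 to 0.27). The cause was not tested. Over the 14 alternatives, the log2-fold changes of BCL2L1 with compounds 4 and 5 were between 0.74 and 1.03 and those of MCL1 with the 3 compounds between 0.67 and 1.33. PMAIP1 and BCL2 had the fewest counts of the members and the widest intervals.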

Other observations

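Some members and DDIT3 differed in the same direction between the 2 libraries of a group, a pattern noticed after the values were seen. In DMSO, replicate 1 had more DDIT3 than replicate 2 (13.9 and 11.1 CPM), as it did with compound 5 (70.1 and 25.7), whereas replicate 2 had more with compound 4 (20.3 and 35.5) and compound 6 (19.4 and 38.1). BCL2L1, MCL1 and BBC3 had the higher level in the same library as DDIT3 in all 4 groups, BCL2L11 and PMAIP1 in 3 of 4, and BAX in 0 of 4. Of the 13399 other tested genes, 10.9% matched DDIT3 in all 4 groups, as did 3 of the 10 members. The shares of all genes that matched in 3 of 4 or in 0 of 4 were not computed. Some differences were small, such as those of MCL1 in DMSO (129 and 126 CPM) and BCL2L11 with compound 4 (19.4 and 19.7). The directions share their libraries and their depth, and no test was made of them.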
